A study of Mus musculus with 10 samples.

Results

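Tumour-associated macrophages from Mertk knockout hosts were compared with those from wild-type hosts, in 7 of the 10 RNA sequencing libraries of the study. The libraries were taken by their titles. As control there were 3 libraries, from wild-type C57BL/6 mice bearing wild-type PyMT tumour cells. As Mertk KO there were 4, from C57BL/6 mice described as knockouts of Mertk in macrophages only, bearing the same wild-type tumour cells. PyMT is the polyoma middle T oncogene, which drives mammary tumours in mice. In both groups the cells had been put into 2 mammary glands, and macrophages were sorted by flow cytometry after 5 weeks of growth. The remaining 3 libraries, with a knockdown of Ptdss1 in the tumour cells of wild-type hosts, enter the results only through the shared estimate of the spread. The labels give neither the Cre or promoter behind the knockout nor the deleted exons, and they do not say that each library came from its own mouse. The p-values therefore rest on the spread among libraries, part of which may be technical.

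Mertk is a receptor tyrosine kinase of the TAM family, with Tyro3 and Axl. Through the bridging ligands Gas6 and protein S (Pros1), it binds phosphatidylserine on dying cells, drives their engulfment by macrophages (efferocytosis) and dampens inflammatory signalling. In tumours, macrophages that clear dying cells are known for matrix remodelling and for tolerance of the tumour by the immune system.

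Between 10292592 and 24260871 reads per library were assigned to genes. Values are log2(normalised reads + 1), so a difference of 1 is a doubling for all but low genes. All 14 macrophage markers had at least 10 reads in every library, and their summed share was 46500 to 56940 CPM (reads per 1000000) in control against 45520 to 62160 in Mertk KO. Control replicate 2 stood apart: of 8504 genes with at least 10 reads in the other 6 libraries, it had fewer than 10 for 9.02%. Mertk KO replicates 3 and 4 missed 4.60% and 2.83% of such genes, and the other 4 libraries at most 0.438%. In a principal component analysis of the well-expressed genes, component 1 set control replicate 2 apart. Mertk KO replicates 3 and 4 scored 74.8 and 25.3 on component 2, where the other 5 libraries scored -5.40 or lower, and -35.7 and 70.2 on component 3. Mertk KO replicates 1 and 2 lay among or beside the controls on these 3 components, none of which separated the groups.

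**Figure D1:**
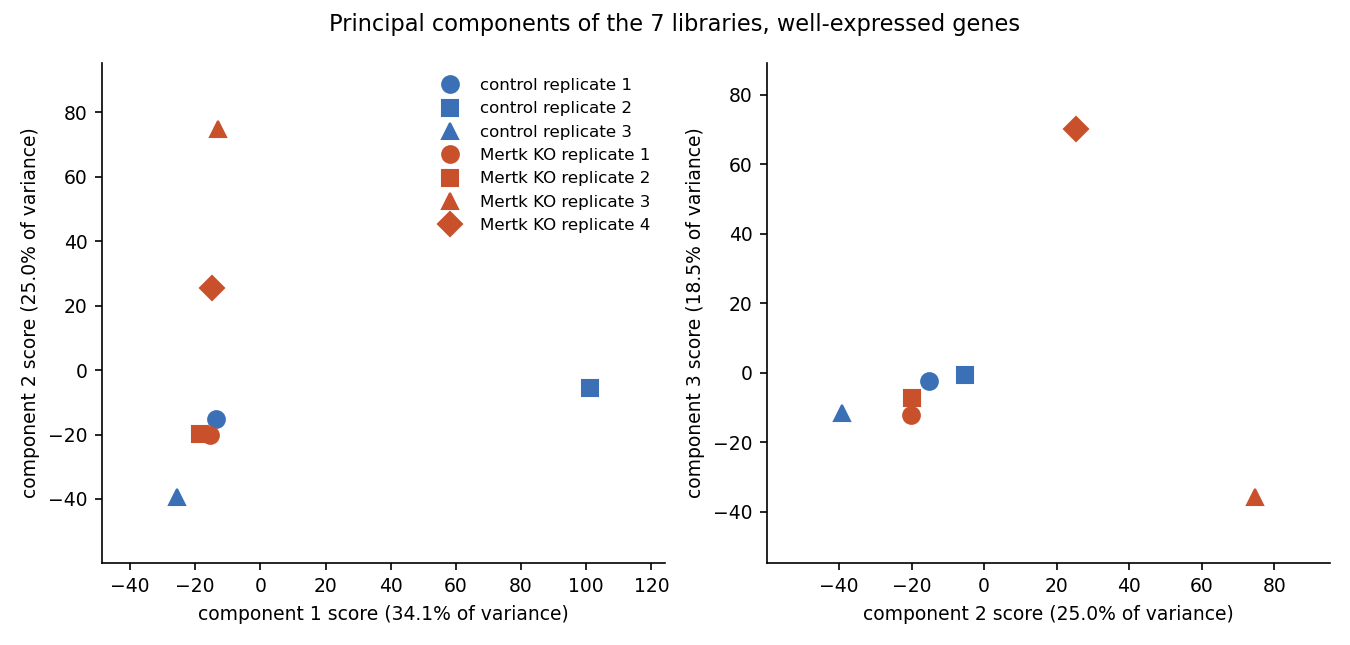
Scores of the 7 libraries (blue control, orange Mertk KO, shapes for replicates) on components 1 and 2 (left) and 2 and 3 (right) of 7737 well-expressed genes; axis labels give the share of variance. Component 1, with 34.1%, is high in control replicate 2 alone, component 2, with 25%, is highest in Mertk KO replicate 3 and next in replicate 4, and component 3, with 18.5%, puts these 2 libraries at opposite ends.

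Transcripts of 2 secreted matrix proteins, osteopontin and fibronectin, rose in macrophages from the Mertk KO hosts, and no gene fell past the threshold. Of 11564 genes tested, 2 rose (0.0173%) and 0 fell (0%) at a limma adjusted p below 0.05, while 238 had an unadjusted p below 0.05. Leaving out any 1 of the 7 libraries left 0 or 1 genes. To describe more of the comparison, genes were also sorted by whether the groups overlapped. Of 7737 well-expressed genes (at least 10 reads in all 7 libraries), 236 (3.05%) were higher in every Mertk KO library than in any control library, and 209 (2.7%) were lower in every one, 445 (5.75%) together. Over all tested genes the counts were 347 (3%) and 303 (2.62%). These counts are descriptions and not calls, and they grow when a library is left out, because fewer libraries must then be separated. With so few libraries, some genes separate in this way without any effect of the group. The shares were not compared with the rate at which that happens, so groups apart do not by themselves show a difference. Well-expressed genes held between 97.2% and 98.1% of all reads.

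Across all genes the differences were centred near 0. The median difference, Mertk KO minus control, was 0.016 over the tested genes and -0.017 over the well-expressed ones. Libraries of different groups differed by a median absolute log2 value of 0.425 to 0.892 per gene, against 0.389 to 0.753 within Mertk KO and 0.568 to 0.989 within control. The error depended strongly on the level: the median SE was 1.48 in the 1935 well-expressed genes of lowest level and 0.487 in the 1934 of highest level. Among 1001 well-expressed genes (12.9%) whose difference was beyond 1 in either direction, 584 were higher and 417 lower in Mertk KO. In 128 of the higher and 107 of the lower genes the groups did not overlap.

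**Figure D2:**
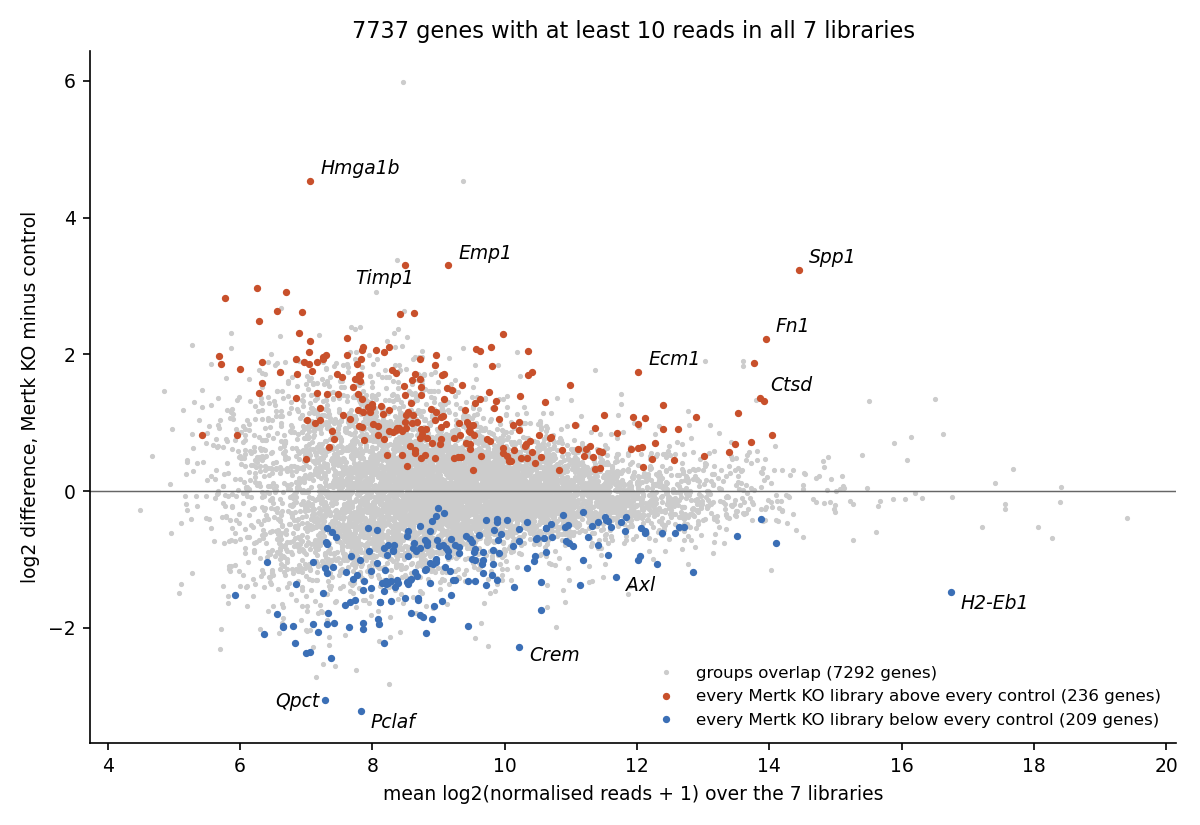
Each point is 1 of 7737 well-expressed genes: the x axis is its mean log2(normalised reads + 1) over the 7 libraries and the y axis its log2 difference, Mertk KO minus control. Coloured points are the 236 genes above (orange) and 209 genes below (blue) control in every Mertk KO library; Spp1, Fn1 and H2-Eb1 lie far from 0 at high levels, where most genes lie close to it.

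Spp1 (chromosome 5, 104435118 to 104441050, plus strand, GRCm38) encodes osteopontin, a secreted phosphoprotein that binds integrins and CD44. It was read at 12.31, 12.93 and 12.58 in control against 15.41, 15.58, 17.54 and 14.81 in Mertk KO. As a share of all reads this was 315, 510 and 345 CPM in control, against 2875, 3143, 12270 and 1682 in Mertk KO. The groups did not overlap, and Mertk KO replicate 3 was the highest of all. The mean was 12.61 ± 0.31 (SD, n = 3) in control against 15.84 ± 1.18 (SD, n = 4) in Mertk KO, and Spp1 rose by 3.23 with an SE of 0.51 (limma adjusted p = 0.0317). Leaving out 1 library gave differences between 2.66 and 3.57, with limma adjusted p between 0.0325 and 0.427, and only without Mertk KO replicate 4 did it still pass.

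Spp1 has 2 start sites in the RefSeq promoter table for GRCm38.p6. The first is printed because Spp1 showed the larger of the 2 changes past the threshold. It spans chr5:104434861-104435160 on the plus strand, from 250 bases before the start to 50 after it. The capitals mark CTGATTGG, a CCAAT box read on the opposite strand and extended, at base 202 of the 300; this motif was chosen after the sequences had been seen.
Spp1, first start: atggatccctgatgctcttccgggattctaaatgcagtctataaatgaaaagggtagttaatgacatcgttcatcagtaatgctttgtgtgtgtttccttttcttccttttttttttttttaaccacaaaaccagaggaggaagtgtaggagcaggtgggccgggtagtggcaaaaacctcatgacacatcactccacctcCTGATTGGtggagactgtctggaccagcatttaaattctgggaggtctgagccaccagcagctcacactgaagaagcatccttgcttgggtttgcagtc
CTGATTGG, searched on both strands, was found in 4.10% of all 32851 promoters in the table, in 5.43% of those of well-expressed genes, and in 5.53% and 6.41% of those of well-expressed genes above and below control. The AP-1 motif TGANTCA and the cAMP response element TGACGTCA, searched the same way, were not among the letters of this window. TGANTCA was held by 7.81% of all promoters, and TGACGTCA by 1.79%.

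Fn1 (chromosome 1, 71585520 to 71653200, minus strand) encodes fibronectin, the fibre-forming glycoprotein on which cells anchor through integrins. Its level was 12.66, 12.45 and 12.90 in control against 14.49, 14.69, 15.29 and 15.13 in Mertk KO, with no overlap and little spread in either group. In CPM these were 403, 366 and 429 against 1527, 1692, 2570 and 2103. Against a control mean of 12.67 ± 0.22 (SD, n = 3), the Mertk KO mean was 14.90 ± 0.37 (SD, n = 4), and Fn1 rose by 2.23 with an SE of 0.35 (limma adjusted p = 0.0317). The difference stayed between 2.10 and 2.37 when any 1 library was left out, but the limma adjusted p was then 0.0525 to 0.427.

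Markers of fibroblasts, which also make fibronectin, were unevenly spread. Their summed share was 57.9 and 61.8 CPM in Mertk KO replicates 2 and 4, against 1.07 and 2.08 in replicates 1 and 3 and 1.23 to 5.15 in control. Of 10 fibroblast markers, Lum and Dpt were at 0 in all 7 libraries. With Mertk KO replicates 2 and 4 both left out, the difference was 3.87 for Spp1 (limma adjusted p = 0.0420) and 2.22 for Fn1 (limma adjusted p = 0.606). Leaving out this pair was chosen after the data were seen, and the part of fibroblasts in the results was not tested. In bulk samples, a change in the number of cells of a type and a change in RNA per cell cannot be told apart.

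Further genes of the matrix lay on the same side without passing the threshold. Timp1 (chromosome X, 20870166 to 20874735, plus strand), the secreted inhibitor of matrix metalloproteinases, was at 6.75, 7.01 and 6.05 in control against 9.55, 10.43, 11.12 and 8.52 in Mertk KO, a difference of 3.31 (SE 0.89, limma adjusted p = 1.0). Ecm1, a secreted matrix glycoprotein, was at 10.93, 11.09 and 11.05 against 11.84, 11.98, 13.63 and 13.62, a difference of 1.74 (SE 0.57). The controls were close together, while Mertk KO replicates 3 and 4 were far above replicates 1 and 2. Anxa2, an annexin that assembles plasminogen and its activator at the cell surface, was at 11.12, 11.56 and 11.28 against 12.25, 12.01, 12.67 and 12.70. Plau, the urokinase plasminogen activator, was at 5.88, 8.05 and 6.69 against 8.49, 9.02, 9.53 and 8.74, with a difference of 2.07 (SE 1.46). Tgm2, the transglutaminase that crosslinks fibronectin, was at 12.87 ± 0.14 (SD, n = 3) in control, against 13.73, 13.62, 14.48 and 14.23, a difference of 1.14 (SE 0.44). In each of these 5 genes the groups did not overlap, and Anxa2 and Plau were named after this was seen. Of 12 well-expressed matrix and matricellular proteins, 4 (Spp1, Fn1, Ecm1 and Anxa2) lay above control in every Mertk KO library and 0 below. This count includes Spp1 and Fn1, the 2 genes past the threshold. The lists were chosen with earlier results of these data known, so the count is no independent support. Of 19 well-expressed matrix proteases and inhibitors, 2 lay above and 0 below. The shares of all well-expressed genes were 3.05% above and 2.7% below. Tgm2 is on neither list but on that of alternative activation. Fam20c, the Golgi kinase that phosphorylates secreted proteins, osteopontin among them, was at 6.66, 6.91 and 7.24 in control against 9.49, 8.58, 10.66 and 9.38 in Mertk KO, a difference of 2.59 (SE 0.92).

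As lists, matrix genes had medians above the 0.016 of all tested genes. Of 20 tested matrix and matricellular proteins, 2 rose, 0 fell and 18 did not pass; 18 of the differences were positive, with a median of 1.04. That median was 0.30 without Mertk KO replicate 4 and 1.53 without control replicate 3. Some members, such as Col1a1 and Dcn, are also fibroblast markers. In Mertk KO replicates 2 and 4, Col1a1 had 97 and 495 reads and Dcn 156 and 361. Elsewhere among the 7 libraries Col1a1 had at most 18 reads and Dcn at most 69. Thbs1, the matricellular thrombospondin, went the other way at 11.60, 12.48 and 14.11 in control against 12.38, 11.37, 9.88 and 11.25 in Mertk KO, with overlapping groups and a difference of -1.51 (SE 0.60) that was -0.82 without control replicate 3. Of 27 tested matrix proteases and inhibitors, 0 passed in either direction, 23 differences were positive, and the median was 0.59, or 1.17 without control replicate 3. Htra1, a secreted serine protease that degrades fibronectin, had 264, 296, 1406 and 774 reads in Mertk KO and 4, 0 and 0 in control. Mmp12, the macrophage elastase, overlapped between the groups, with a difference of 1.43 (SE 0.63) that was 0.59 without control replicate 1 and 2.31 without control replicate 2.

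No receptor for these 2 ligands passed the threshold. Of 14 tested osteopontin and fibronectin receptors, 0 rose, 0 fell, 8 differences were positive, and the median was 0.30 (0.077 without control replicate 1). Cd44 was at 11.34, 11.51 and 11.77 in control against 11.64, 11.50, 11.80 and 11.78 in Mertk KO, and Itgav, the alpha v integrin chain, at 10.96, 11.72 and 11.14 against 10.74, 11.07, 10.82 and 10.84. Of the 11 well-expressed receptors, 2 lay above control in every Mertk KO library, against 3.05% of all well-expressed genes. They were Itgb1, the beta 1 chain of the classical fibronectin receptor, and Itgb7. Itgb1 was at 11.47, 11.74 and 11.75 against 12.06, 12.21, 12.51 and 12.38, a difference of 0.63 (SE 0.42). The largest differences of the list were in 2 genes of few reads and went opposite ways. Sdc1, a heparan sulfate proteoglycan, was at 0, 0 and 4.32 in control against 7.97, 6.09, 6.66 and 7.91 in Mertk KO, a difference of 5.72 (SE 1.87). Itga8, the alpha 8 integrin chain, was at 7.06, 7.96 and 6.41 against 1.98, 6.20, 0 and 0.849, a difference of -4.89 (SE 1.96). Neither overlapped between the groups.

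**Figure D3:**
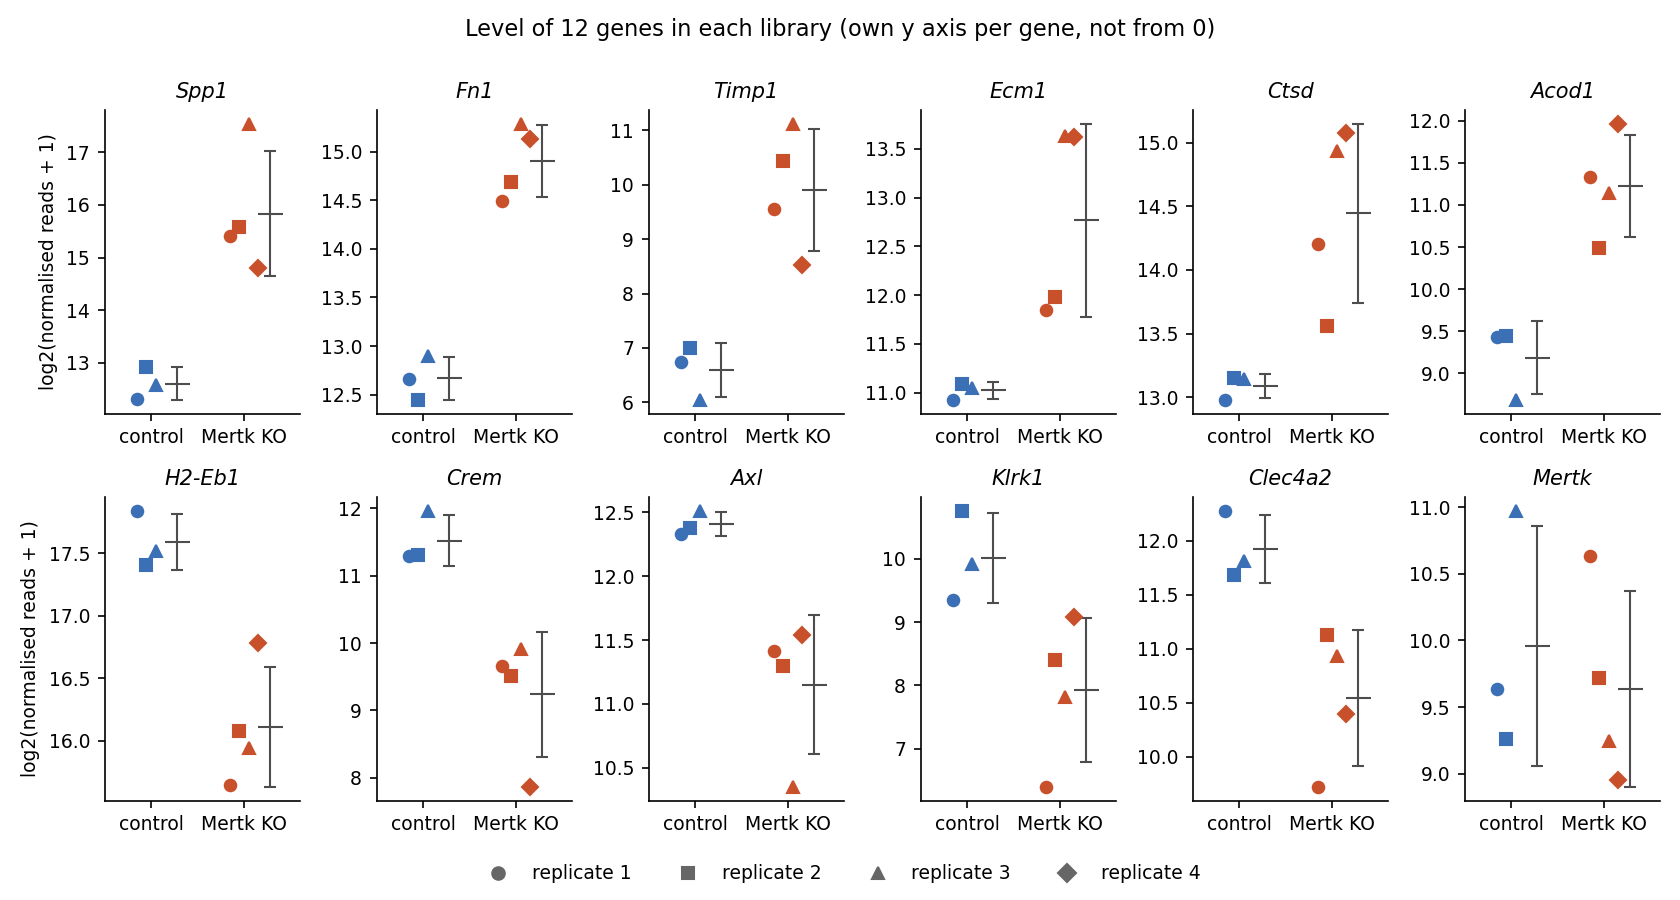
Level of 12 genes as log2(normalised reads + 1), 1 point per library (blue control, orange Mertk KO, shapes for replicates), with the mean and SD of each group beside its points; each panel has its own y axis, which does not start at 0. The groups do not overlap in any panel but Mertk, where control spans 9.26 to 10.97 and Mertk KO 8.95 to 10.63.

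Efferocytosis receptors, bridging molecules and engulfment genes had differences in both directions. Of 29 tested, 0 rose, 0 fell, 13 differences were positive and 16 negative, and the median was -0.079 (0.074 without Mertk KO replicate 2, and -0.18 when control replicate 3 was left out). Mertk itself was read in every library, with a difference of -0.32 (SE 0.70) that was 0.19 without control replicate 3. Since the deleted part is not stated, the value for the whole gene does not check the labels. Axl, the other TAM receptor of these macrophages, was at 12.33, 12.38 and 12.51 in control against 11.42, 11.30, 10.35 and 11.54 in Mertk KO. The controls were close together and the groups did not overlap, with a difference of -1.26 (SE 0.53, limma adjusted p = 1.0). Tyro3 was listed at 0 in all 7 libraries.

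Of the 23 well-expressed genes of this list, 2 lay above control in every Mertk KO library and 2 below, against 3.05% and 2.7% of all well-expressed genes. Cd14, which also tethers dying cells, was at 14.82, 14.41 and 14.35 in control against 14.30, 13.52, 13.30 and 13.96 in Mertk KO. Lrp1, the receptor that engulfs calreticulin-coated cells, was at 10.81, 10.85 and 10.94 against 12.13, 11.48, 12.23 and 12.06, a difference of 1.11 (SE 0.54). Stab1, the phosphatidylserine receptor stabilin 1, was at 10.45, 10.93 and 11.12 against 11.81, 11.47, 12.29 and 11.48. Axl and Cd14 were the pair below control, and Lrp1 and Stab1 the pair above. Gas6 was at 8.75, 9.25 and 8.36 in control against 8.38, 9.31, 11.68 and 11.31 in Mertk KO, so that Mertk KO replicates 3 and 4 were well above the controls and replicates 1 and 2 were not. Its difference of 1.38 was 0.88 without Mertk KO replicate 3. Pros1, the other ligand, was at 9.65, 4.59 and 8.29 in control against 8.93, 9.38, 10.44 and 9.02 in Mertk KO, with overlapping groups. The Pros1 difference of 1.93 (SE 1.62) was 0.47 without control replicate 2, which had 22 reads of it.

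Transcripts of MHC class II genes differed unevenly, and their proteins were not measured. H2-Eb1 (chromosome 17, 34305867 to 34316674, plus strand) is the gene for the beta chain of the E molecule. Its transcript was at 17.84, 17.41 and 17.52 in control against 15.65, 16.08, 15.94 and 16.78 in Mertk KO. The groups did not overlap, and the difference of -1.48 (SE 0.33) had the smallest p of the well-expressed genes below control (limma adjusted p = 0.712). Transcripts of the A molecule genes stood nearer to control. H2-Ab1 was at 18.84, 18.66 and 18.49 against 17.66, 17.95, 17.78 and 18.51, a difference of -0.69 (SE 0.29), and H2-Aa differed by -0.53 (SE 0.29). Both overlapped, through Mertk KO replicate 4. Ciita, the class II transactivator, differed by 0.045 (SE 0.58), which was -0.61 without control replicate 3, 0.57 without control replicate 2 and -0.096 when Mertk KO replicate 3 was left out, and Cd74, the invariant chain, by -0.40 (SE 0.32), which was -0.18 without Mertk KO replicate 1.

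H2-DMb2, a chain of the peptide-loading DM molecule, lay on the other side, at 9.25, 10.51 and 10.54 in control against 10.98, 11.07, 12.06 and 12.52 in Mertk KO, a difference of 1.56 (SE 0.51). Its close copy H2-DMb1 overlapped, at 14.50, 14.26 and 13.74 against 13.10, 13.13, 14.37 and 14.28. Reads may be split between the copies, and these values are uncertain to that extent. Of 13 tested class II genes 0 rose and 0 fell, 8 differences were negative, and the median was -0.26, ranging from -0.48 without control replicate 3 to -0.13 without Mertk KO replicate 3. In class I, with 19 tested genes, 0 rose and 0 fell, and the median was -0.015, or -0.17 without control replicate 3 and 0.027 if Mertk KO replicate 4 was left out. H2-Q4 was at 7.70, 9.26 and 8.19 against 9.87, 9.40, 11.00 and 11.57, and H2-T22 at 10.73, 11.08 and 11.25 against 10.14, 9.63, 10.08 and 10.16; these family members also share near-identical sequence.

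The promoters of H2-Eb1 and H2-Aa are printed because these genes share a transactivator while only H2-Eb1 separated the groups. They come from the same RefSeq table for GRCm38.p6, at chr17:34305617-34305916 on the plus strand and chr17:34287774-34288073 on the minus strand. Capitals mark CTGATTGG, the core of the Y box of class II promoters, and in H2-Aa also TGACGTCA.
H2-Eb1: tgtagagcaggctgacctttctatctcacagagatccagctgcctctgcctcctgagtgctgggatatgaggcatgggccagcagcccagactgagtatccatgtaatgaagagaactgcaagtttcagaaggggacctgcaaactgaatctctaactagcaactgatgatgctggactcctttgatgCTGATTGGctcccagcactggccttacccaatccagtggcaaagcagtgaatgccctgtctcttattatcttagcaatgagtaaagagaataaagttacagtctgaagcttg
H2-Aa: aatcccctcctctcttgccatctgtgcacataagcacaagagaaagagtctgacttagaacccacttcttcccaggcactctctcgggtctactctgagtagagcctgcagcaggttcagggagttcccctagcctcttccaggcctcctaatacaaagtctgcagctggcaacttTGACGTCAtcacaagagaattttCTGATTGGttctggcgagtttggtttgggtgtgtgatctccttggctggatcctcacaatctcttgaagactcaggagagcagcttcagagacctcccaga
CTGATTGG began at base 189 of the H2-Eb1 window, at base 200 of the H2-Aa window and, as printed earlier, at base 202 of the first Spp1 window. TGACGTCA began at base 177 of the H2-Aa window. A match is a description of the letters and not evidence of binding: Spp1, which rose, and H2-Eb1, which lay below control, both hold CTGATTGG.

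Single genes of inflammatory and metabolic signalling lay above control in every Mertk KO library, and others lay below. Of 12 well-expressed inflammatory cytokines, 0 lay above and 1, Il15, below, against 3.05% and 2.7% of all well-expressed genes. Of 16 well-expressed chemokines, 1 lay above and 0 below. Of 19 in the interleukin 1 family and inflammasome, 2 (Aim2 and Il1rn) lay above and 1 (Nlrc4) below. Il1r2, of the same family, is not in that count because it had too few reads in Mertk KO replicate 3. It had 884, 504 and 6875 reads in control against 43, 120, 2 and 23 in Mertk KO. Its groups did not overlap, and the difference was -5.70 (SE 1.59), short of the threshold. Of 14 well-expressed genes of alternative activation, 2 (Il4ra and Tgm2) lay above and 0 below. Over the 19 tested members of that list, 12 differences were positive and 7 negative. Mgl2, among the negative ones, was at 11.64, 12.64 and 11.43 in control against 8.65, 9.56, 12.22 and 9.26 in Mertk KO. Its difference was -1.98 (SE 0.65), with overlap through Mertk KO replicate 3. Acod1, which makes the metabolite itaconate in activated macrophages, was at 9.43, 9.45 and 8.69 in control against 11.32, 10.49, 11.14 and 11.96 in Mertk KO, a difference of 2.04 (SE 0.61, limma adjusted p = 1.0). Fbxl5, an iron-sensing subunit of a ubiquitin ligase, was at 9.53, 9.52 and 9.22 against 11.56, 10.63, 11.37 and 11.07, a difference of 1.73 (SE 0.49). Neither gene overlapped between groups. Ccl6, a chemokine of myeloid cells, was at 13.23, 13.12 and 13.15 against 14.76, 13.82, 15.64 and 13.70, with controls close together and Mertk KO replicates 1 and 3 highest. Il4ra, the receptor for interleukin 4, was at 11.27, 12.02 and 11.22 against 12.04, 12.40, 13.03 and 12.82. Gbp2, an interferon-induced GTPase, was at 12.68, 11.89 and 12.26 against 13.45, 13.34, 13.54 and 13.07, a difference of 1.08 (SE 0.43). It was the only 1 of the 25 well-expressed interferon response genes whose groups were apart, against 5.75% of all well-expressed genes.

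Of 20 tested inflammatory cytokines, 21 chemokines, 22 genes of the interleukin 1 family and inflammasome, 19 alternative activation genes and 32 interferon response genes, 0 rose and 0 fell. Median differences were 0.30, 0.55, 0.29, 0.57 and -0.052 in that order. Without control replicate 3 the first 3 were 0.038, 0.13 and 0.064, and the last was -0.41. Cytokines were at 0.51 without control replicate 1 and interferon response genes at 0.14 without control replicate 2. Alternative activation was 0.30 without Mertk KO replicate 3 and 1.20 without replicate 1.

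Of 28 tested genes of glycolysis and hypoxia, 0 rose and 0 fell, and 0 had an unadjusted p below 0.05. Of the differences, 25 were positive, and the median was 0.47, between 0.16 without control replicate 1 and 0.68 without control replicate 3. Of its 26 well-expressed members, 2 lay above control in every Mertk KO library, against 3.05% of all well-expressed genes. Hk1, a hexokinase, was at 7.86, 8.06 and 8.38 in control against 8.55, 8.85, 10.11 and 8.91 in Mertk KO, a difference of 1.00 (SE 0.83) that was 0.67 without Mertk KO replicate 3. P4ha1, a collagen prolyl hydroxylase subunit induced by hypoxia, was at 10.72, 11.42 and 11.14 against 11.72, 11.54, 11.77 and 11.71. Of 24 tested growth and angiogenic factors, 0 rose and 0 fell, 19 differences were positive, and the median was 0.41, or 0.066 without control replicate 1 and 0.82 without control replicate 3.

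Costimulators and T cell inhibitory molecules differed in both directions. Of 21 tested, 0 rose and 0 fell, 13 differences were positive, and the median was 0.24 (0.071 without Mertk KO replicate 4). Of 17 well-expressed members, 2 lay below control in every Mertk KO library, against 2.7% of all well-expressed genes. They were Cd80 and Cd86, the CD28 ligands. Cd86 was at 12.07, 12.57 and 12.78 in control against 11.99, 11.86, 11.63 and 11.97 in Mertk KO, so that the nearest libraries of the groups almost met, with a difference of -0.61 (SE 0.40). Pdcd1lg2, a ligand of the inhibitory receptor PD-1, and Arg1, the arginase of alternatively activated macrophages, had differences of 1.27 (SE 0.52) and 1.31 (SE 0.58). Their groups overlapped, and the differences were 0.82 and 0.74 without control replicate 1. Havcr2, on the same list and on that of efferocytosis receptors, went the other way. It was at 9.85, 11.37 and 11.31 in control against 9.37, 9.96, 9.80 and 9.06 in Mertk KO. The difference was -1.29 (SE 0.52), also with overlapping groups.

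Of 38 lysosome genes, all well-expressed, 3 lay above control in every Mertk KO library, against 3.05% of all well-expressed genes, and 0 rose or fell. Ctsd, the aspartic protease of lysosomes, was at 12.98, 13.15 and 13.14 in control against 14.21, 13.56, 14.94 and 15.08 in Mertk KO, a difference of 1.36 (SE 0.49). Ctsl was at 13.46, 13.26 and 13.97 against 14.10, 14.44, 14.48 and 14.55, and Cd68, a lysosomal glycoprotein of macrophages, at 13.11, 12.91 and 13.25 against 13.39, 13.27, 14.11 and 14.37. The median of the list was 0.13 (0.039 without Mertk KO replicate 4). Of 22 tested lipid-associated macrophage genes, Spp1 alone rose and 0 fell, with a median of 0.51 that was 0.23 without Mertk KO replicate 3. Gpnmb, a membrane glycoprotein of foamy macrophages, was at 2.91, 6.49 and 6.60 against 11.18, 8.96, 7.50 and 10.47. Dgat1, which makes triglycerides, lay on the lower side, at 9.66, 10.28 and 10.23 against 9.14, 8.37, 7.99 and 8.65.

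Monocyte genes were variable. The list had a median of 1.06 over 22 tested members, with 0 past the threshold and 17 positive, and the median was 0.46 without control replicate 2. Over its 12 well-expressed members the median was 0.68. Of these 12, 1 (S100a6) lay above control in every Mertk KO library and 0 below, against 3.05% and 2.7% of all well-expressed genes. S100a6, a calcium-binding protein, was at 10.38, 9.01 and 10.19 in control against 11.05, 11.48, 11.18 and 10.95 in Mertk KO. Chil3, a chitinase-like protein whose family members may share reads, was at 7.17, 7.49 and 5.66 against 12.33, 11.17, 14.46 and 7.27, so that Mertk KO replicate 4 lay among the controls. Mature macrophage genes had a median of 0.0031 over 26 tested members, 0 of them past the threshold, and between -0.14 and 0.18 with 1 library left out. Of its 23 well-expressed members, 3 lay above control in every Mertk KO library, against 3.05% of all well-expressed genes. They were Stab1, Folr2, a folate receptor of resident macrophages, and the transcription factor Maf. Folr2 was at 9.83, 7.92 and 8.25 against 9.89, 10.65, 11.53 and 11.80, with a difference of 2.30 (SE 1.69).

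**Figure D4:**
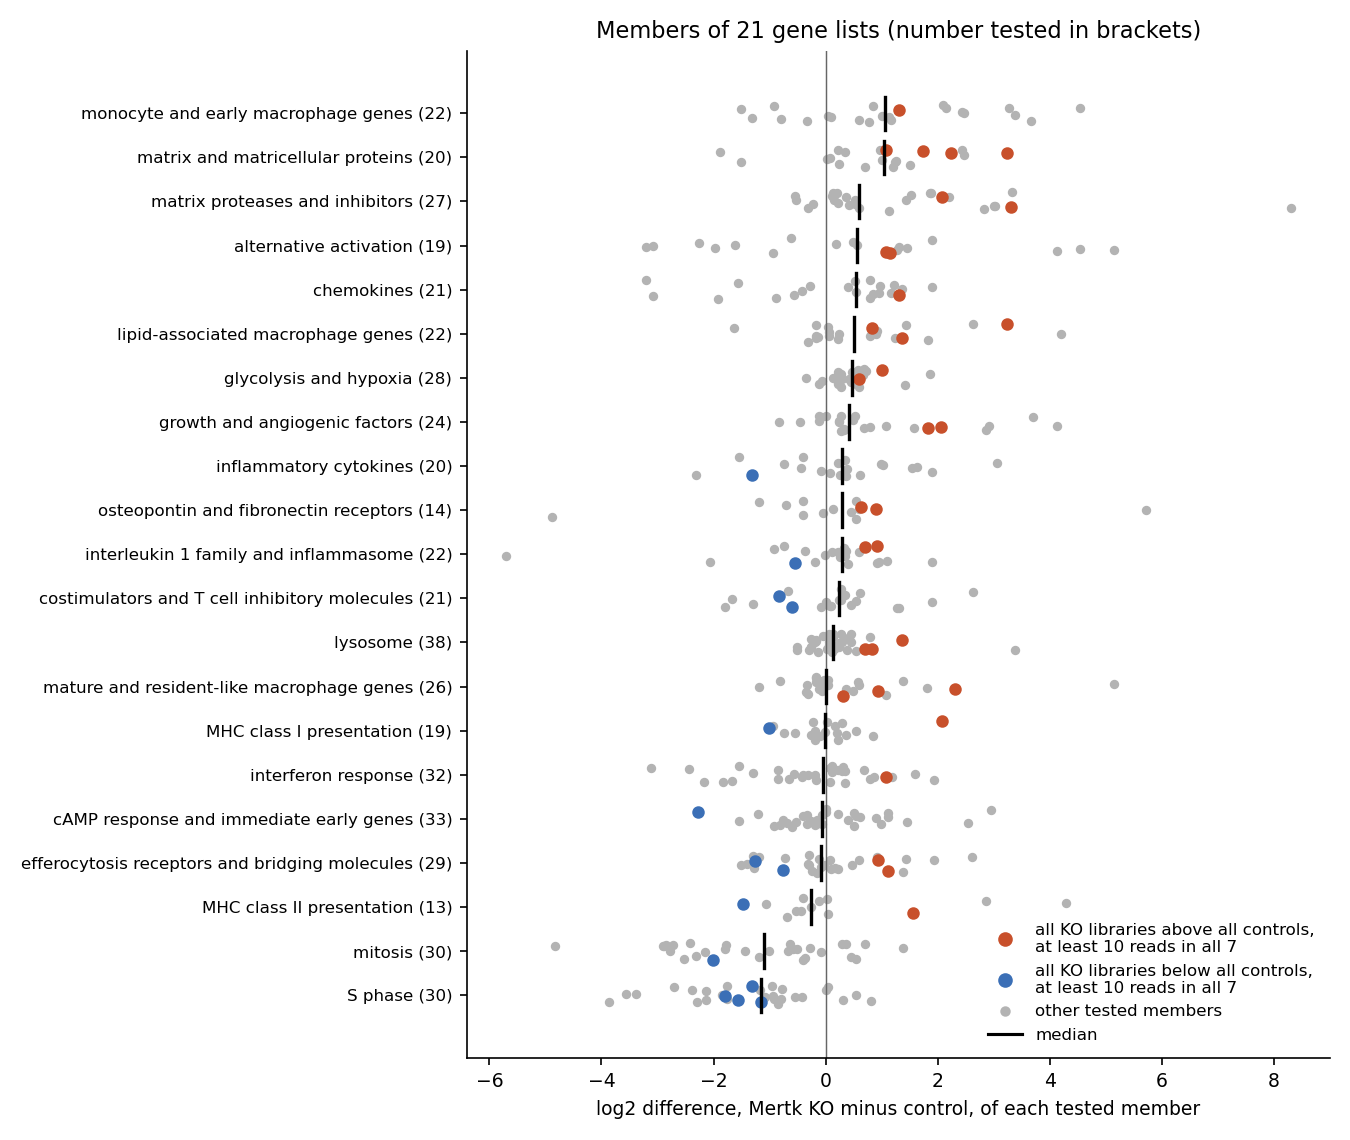
Each dot is a tested member of 1 of 21 gene lists, placed by its log2 difference, Mertk KO minus control, with the list's median as a black bar and lists sorted by it. Orange and blue dots are well-expressed members above or below control in every Mertk KO library. The matrix and matricellular list and the monocyte list have medians of 1.04 and 1.06, mitosis and S phase lists -1.10 and -1.16. Over well-expressed members alone these 4 medians are 0.66, 0.68, -1.19 and -0.94 in that order.

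Cell cycle genes were on the lower side in Mertk KO, with no member past the threshold. Of 30 tested S phase genes 25 differences were negative, with a median of -1.16, or -0.85 without control replicate 1. Of 30 tested mitosis genes 24 were negative, with a median of -1.10 that was -0.33 without control replicate 1 and -2.08 without control replicate 2. Only 16 S phase genes and 5 mitosis genes were well-expressed. Of these, 4 S phase genes (Mcm4, Cdt1, Rfc5 and Lig1) and 1 mitosis gene (Cdk1) lay below control in every Mertk KO library, against 2.7% of all well-expressed genes. Mcm4, part of the replicative helicase, was at 9.71, 9.86 and 8.79 in control against 8.49, 8.69, 8.25 and 7.76 in Mertk KO, a difference of -1.16 (SE 0.78). Rfc5, a clamp loader subunit, was at 9.80, 9.90 and 9.06 against 8.29, 8.09, 7.59 and 8.12. Pclaf, a PCNA-binding factor of dividing cells, was at 10.78, 8.94 and 9.29 against 6.76, 8.10, 7.43 and 3.51, lowest in Mertk KO replicate 4.

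Crem, a transcriptional modulator responsive to cAMP, had the next smallest p among well-expressed genes below control. It was at 11.29, 11.31 and 11.96 in control against 9.66, 9.51, 9.91 and 7.87 in Mertk KO, a difference of -2.28 (SE 0.57, limma adjusted p = 1.0). The other 27 well-expressed cAMP response and immediate early genes overlapped between the groups, and the list's median was -0.065 (-0.30 without control replicate 3). Clec4a2, an inhibitory C-type lectin, was at 12.28, 11.68 and 11.81 against 9.72, 11.13, 10.94 and 10.40. Qpct, the glutaminyl cyclase that modifies the ends of secreted peptides, was at 9.15, 9.02 and 8.89 against 5.34, 6.31, 5.48 and 6.75, a difference of -3.05 (SE 1.01). Tspan13, a tetraspanin, was at 11.35, 11.12 and 11.47 against 9.96, 10.40, 10.24 and 9.31. In these 4 genes every Mertk KO library was below every control, and the controls were closer together than the Mertk KO libraries.

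Among the 209 well-expressed genes below control in every Mertk KO library (2.7% of all well-expressed genes) were 2 that are known from NK cells. Of the 10 listed NK cell markers, to which Sh2d1b1 does not belong, only Klrk1 had at least 10 reads in all 7 libraries. Klrk1, which encodes the activating receptor NKG2D, was at 9.35, 10.75 and 9.92 in control against 6.40, 8.41, 7.82 and 9.08 in Mertk KO, and Sh2d1b1, an adaptor of SLAM receptors, at 10.75, 9.23 and 9.92 against 7.38, 8.95, 8.12 and 7.95. The summed NK cell marker list, of which Klrk1 is a member, held 102 to 236 CPM in control against 14.6 to 56.4 in Mertk KO, without overlap. Without Klrk1 the sums did overlap, at 196, 26.9 and 47.8 CPM in control against 50.8, 30.0, 0.156 and 0 in Mertk KO. Its defining marker Ncr1 was at 0 in all 7 libraries, and Gzma was at 0 in control replicate 2 and in Mertk KO replicates 3 and 4. The part of NK cells in these results was not tested.

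The sum of 14 epithelial markers was 21.3 to 33.1 CPM in control against 66.1 to 162 in Mertk KO, without overlap, and 0 of its 6 tested members were called. Cdh1, E-cadherin, had 399, 299 and 587 reads in control against 612, 1060, 1849 and 1218 in Mertk KO. It made up 61.7% to 96.1% of the sum in the other 6 libraries and 35.2% in Mertk KO replicate 4, which also had 1535 reads of the keratin gene Krt8 and 647 of Krt18. Without Cdh1 the sums overlapped, at 12.5, 0.821 and 8.94 CPM in control against 10.01, 10.6, 4.06 and 105 in Mertk KO. Leaving out Klrk1 or Cdh1 was chosen after their values were seen. Epcam, Krt14, Cldn4 and Csn3 were at 0 in all 7 libraries. Mertk KO replicate 3, the library with the most Spp1, had 9573 reads of Cd209a, against at most 30 in any other. Cd209a is on both the dendritic cell marker list and the alternative activation list. The part of epithelial and dendritic cells in the results was not tested. Of 12 marker lists, the NK cell and epithelial lists were the ones whose full sums did not overlap between the groups.

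**Figure D5:**
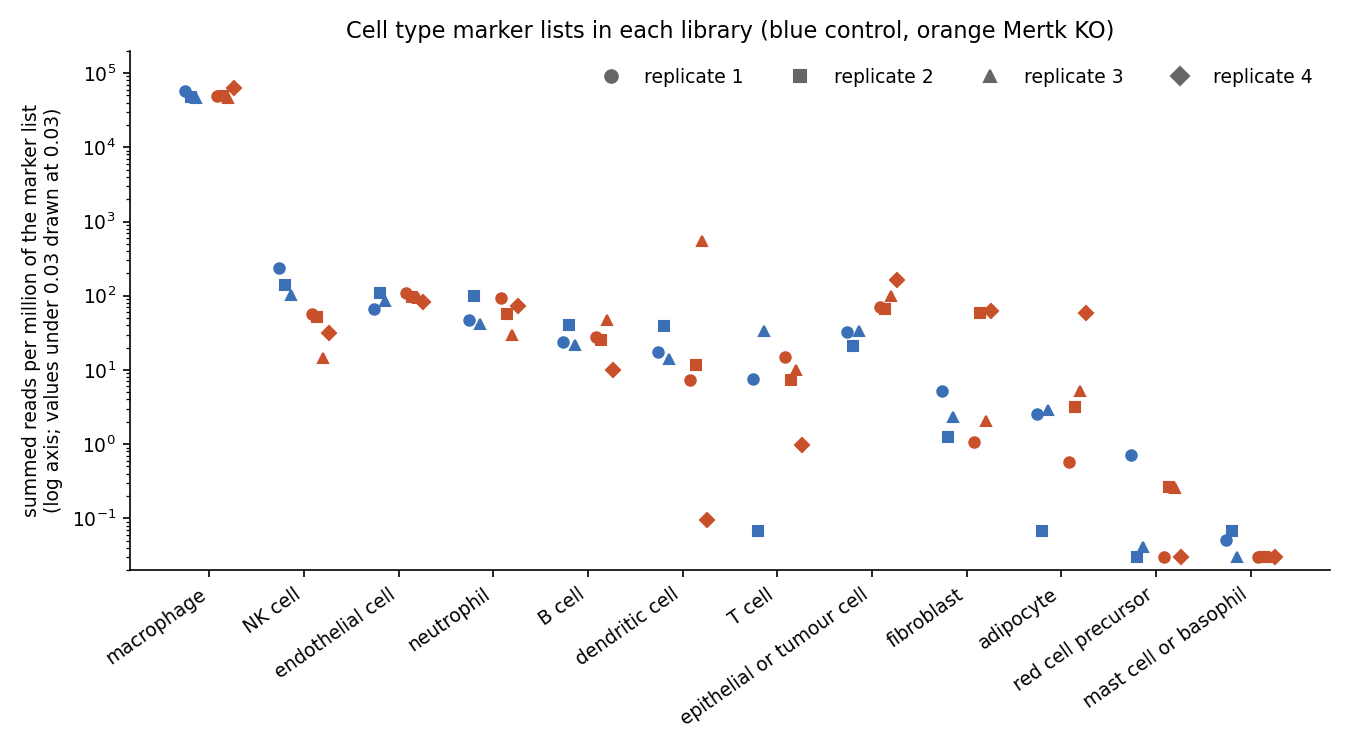
Summed CPM of 12 cell type marker lists in each library on a log axis (blue control, orange Mertk KO, shapes for replicates; values under 0.03 are drawn at 0.03). Macrophage markers lie between 45520 and 62160 in all 7 libraries. The sums of NK cell markers are lower and those of epithelial markers higher in every Mertk KO library, which rests on Klrk1 and on Cdh1. The fibroblast, dendritic cell and adipocyte lists each stand out in 1 or 2 Mertk KO libraries. For the dendritic cell list this is mostly through Cd209a, and for the adipocyte list through Fabp4.

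Some genes were read in 1 group and hardly in the other, taken as at most 3 reads in each library of one group and at least 10 in each of the other. In Mertk KO there were 2, Kmo, an enzyme of the kynurenine pathway of tryptophan breakdown, and Sfmbt2, a Polycomb group protein. Kmo had 59, 12, 793 and 12 reads in Mertk KO and 0, 1 and 0 in control. In control there were 5, Rtn1, Nek3, Mybph, Fam222a and Il2ra. Mybph, which encodes a myosin-binding protein, had 52, 102 and 34 reads in control against 0 in all 4 Mertk KO libraries, where a count of 0 allows up to 3 reads in each. Il2ra, the alpha chain of the interleukin 2 receptor, had 47, 25 and 35 reads in control against 0, 3, 0 and 0 in Mertk KO. None of these 7 genes passed the threshold in limma (adjusted p = 1.0 for each), and low counts after PCR without molecular identifiers are not independent molecules.

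Several large differences rest on low or shared reads. Hmga1b, which encodes a chromatin protein and is a close copy of Hmga1, was at 4.67, 4.38 and 4.37 in control against 8.93, 8.13, 9.80 and 9.16 in Mertk KO, a difference of 4.53 (SE 1.35). Hmga1 was at 9.95, 10.56 and 10.61 against 9.16, 8.83, 10.08 and 9.47, in the opposite direction and with overlap, and reads may be split between these copies. Zbed6, which lies inside another gene, was at 3.63, 4.97 and 6.48 against 8.99, 7.61, 7.97 and 7.20, and its reads cannot be told from those of its host. Emp1, a small membrane protein, was at 6.75, 5.95 and 9.10 against 10.04, 10.89, 10.40 and 10.92, a difference of 3.30 (SE 1.23). Flt1, the VEGF receptor 1 of monocytes, was tight in Mertk KO at 10.42, 10.52, 10.66 and 10.43 and at 6.53, 9.38 and 9.46 in control, so that its difference of 2.05 was 1.09 without control replicate 1. Rps2, a ribosomal protein with many processed copies in the genome, was at 13.49, 12.98 and 14.11 against 12.21, 12.46, 12.31 and 12.40.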

How the data were processed

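Macrophage mRNA was copied with the SMART-Seq v4 kit, amplified by 16 PCR cycles, made into libraries with a ThruPLEX kit, which marks no strand, and sequenced as single reads of 75 cycles, per the labels' protocols. STAR, RSEM and the mm10 build are named without versions per the submitters' processing notes. The authors deposited 1 table per library for 21938 protein-coding genes. No header or label states the unit. From the values, the deposited numbers are log2 of reads divided by a library size factor plus 1, and whole reads were recovered from their steps for 100% of values within a tolerance of 0.01 of a read. The log2 values, and not counts, were tested, and differences on this scale understate the change of low genes.

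Differences were tested with limma-trend (limma 3.58.1, R 4.3.3, robust moderation) on the deposited log2 values of all 10 libraries, 1 mean for each group, no covariate, for genes with at least 10 reads in at least 3 libraries; tests were two-sided, with Benjamini-Hochberg adjustment over all tested genes at 0.05. The script was tested on simulated data. Total reads set the depth, 10292592 to 24260871 per library.

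The 21 gene lists, 12 marker lists and rules were chosen with earlier results of these data known. Named genes are the TAM receptors, their ligands and Lyz2, genes past the threshold, the 12 well-expressed genes per direction with groups apart and smallest p, the 6 of largest difference, up to 4 members per list by p, the core class II genes, and up to 6 genes per direction read in 1 group. Other list members with groups apart, AA467197, Hmga1, H2-DMb1, Itgav, Cd44 and the cell type markers were named after their values were seen. Alternatives were other scalings, filters, pseudocounts, weights and models, and leaving out libraries. Promoters are from RefSeq (GRCm38.p6), and gene positions from GENCODE M21 (GRCm38).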

Additional observations from a re-analysis of the deposited data

Results flagged for a closer look

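In the group of 4 Mertk KO libraries, 148 sets of values (named genes and marker sums) were examined for 1 library far from the other 3. Chance alone marks about 1 in 20 such groups, and 11 were marked. Mertk KO replicate 3 was apart for 5 of them. Its level of H2-Eb2, an MHC class II gene, was 7.47 against 3.95 to 4.52 in the other 3, and that of the cytokine Il15 was 8.19 against 6.92 to 7.13. Its level of Prc1, a protein of the dividing spindle, was 0.856 against 4.58 to 4.92, and that of the replication licensing factor Cdt1 was 3.53 against 7.34 to 7.71. Without this library the difference of Cdt1 was -0.78 in place of -1.79. Its summed dendritic cell markers came to 547.6 CPM (reads per 1000000) against 0.0938 to 11.7. Most of that sum was the 9573 reads of Cd209a, a gene also on the alternative activation list.

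Mertk KO replicate 2 was apart for 4. H2-T22 was at 9.63 against 10.08 to 10.16, and Atp6v0d2, a proton pump subunit of lysosomes, at 8.64 against 10.05 to 10.34. Nek3 was at 0.862 and Il2ra at 1.79, with 0 in the other 3 libraries for both. These values are 1 read and 3 reads. Both genes were named for having at most 3 reads in each Mertk KO library. With 0 in the other 3 libraries any read is marked, so the rate of 1 in 20 does not apply to these 2. Mertk KO replicate 1 was apart for Inhba, a subunit of activin, at 10.84 against 7.77 to 8.06. Mertk KO replicate 4 was apart for summed adipocyte markers, at 57.97 CPM against 0.583 to 5.15, nearly all of them the 1230 reads of Fabp4.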

How the results depend on the processing

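The 2 genes higher in Mertk KO became 0 with upper-quartile factors, with no filter, with only genes of 10 reads in all 7 libraries, with at least 50 reads in 3 libraries, and with that all-7 filter in a fit of the 7 libraries. There was 1 without robust moderation (Fn1), 1 without both libraries that held fibroblast reads (Spp1), 4 without Ptdss1 knockdown replicate 1, 19 with array weights, and again 2, but then Htra1 and Gm10260, without control replicate 2 and Ptdss1 knockdown replicate 1 together, both libraries of few genes. There were 0 to 1 when 1 of the 7 libraries was left out. Genes lower in Mertk KO numbered 0 but 6 with array weights, among them H2-Eb1, Crem and Qpct. Well-expressed genes above control in every Mertk KO library (236) numbered 346 to 701 with 1 library left out (701 without control replicate 2), and 684 without Mertk KO replicates 2 and 4, those of fibroblast reads. Those below (209) numbered 315 to 574 and 732, since fewer libraries had then to be separated. With stricter filters, other factors or thinned reads these counts lay between 196 and 231 above and between 182 and 219 below. Of 2903 differences of named genes under alternatives, 2853 kept their direction and side of the threshold, 27 no longer passed, 18 newly passed and 5 turned: Lyz2 (-0.088) and Tnfsf15 (1.04) with array weights, and Mertk and Ciita with 1 library left out. Mertk then ranged from -0.67 without control replicate 2 to 0.19 without control replicate 3. Ciita ranged from -0.61 without control replicate 3 to 0.57 without control replicate 2, and was -0.096 when Mertk KO replicate 3 was left out. The cause was not tested. Leaving out either of these pairs of libraries and the 7-library fit with the all-7 filter were chosen after seeing the data. No paired analysis was possible because the replicate numbers were given in accession order and pair nothing. With 3 and 4 libraries, genes of few reads had SEs above 1, which limits what could be detected among them.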

Other observations

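Outside the lists, AA467197, which encodes a small mitochondrial protein and was named after its values were seen, was at 11.89, 12.39 and 13.80 in control against 14.89, 15.03, 14.55 and 13.81 in Mertk KO, a difference of 1.88 (SE 0.49, limma adjusted p = 1.0). The lowest Mertk KO library and the highest control library nearly met. Cnn3, the actin-binding calponin 3, was at 8.90, 10.36 and 8.90 in control against 10.67, 10.69, 11.43 and 11.56 in Mertk KO. Adgrg5, an adhesion receptor coupled to G proteins, was at 9.61, 11.39 and 10.73 in control against 9.13, 8.47, 7.55 and 9.25 in Mertk KO. Hes1, a transcription factor downstream of Notch, was at 8.71, 9.17 and 8.41 against 7.56, 7.57, 3.72 and 6.46, a difference of -2.44 that was -1.57 without Mertk KO replicate 3.

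Well-expressed genes with groups apart were spread over the chromosomes. Their share was 5.75% of all well-expressed genes and 4.56% (28 of 614) on chromosome 2, which carries Mertk. Within 20 Mb of the start of Mertk it was 5.44% (8 of 147). The highest share was 9.82% (43 of 438) on chromosome 1 and the lowest 3.97% (12 of 302) on chromosome 19.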
